A study of Mus musculus with 16 samples.

Results

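The regions described here are the 1493 of 250313 accessible regions whose ATAC-seq signal was lower without Brg1 in mTEClo, the fraction of medullary thymic epithelial cells (mTECs) with low surface MHC class II. The regions were selected on the signal of the Brg1-line mTEClo libraries: the lower of both Brg1+/+ mTEClo libraries had to be at least 2 times the higher of both Brg1-/- mTEClo libraries. Its mean Brg1+/+ mTEClo signal also had to reach 30, on the authors' normalized scale. A stretch of chromosome 2 between 77.7 and 77.87 Mb was left out beforehand, and none of its 168 regions met the conditions. The members made up 0.596% of all regions and 3.38% of the 44186 regions that had the same minimum signal. All positions are in mm9, the build in the submitters' processing notes, and every region is 500 bp long.

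ATAC-seq uses the Tn5 transposase to cut DNA where chromatin is open, so a higher signal marks a more accessible region. The 16 libraries were made from thymi of C57BL/6 mice aged 4 weeks, with 60000 sorted cells in a reaction, and formed 8 groups of 2. The sort kept live CD45-negative, Epcam-positive, UEA-positive, Ly51-low cells, and high or low MHC class II then divided them into mTEChi and mTEClo. In the Brg1 line the groups were Brg1+/+ and Brg1-/-, and in the Aire line they were Aire+/+ and Aire-/-, each sorted as mTEChi and as mTEClo. The sample descriptions call the Brg1+/+ libraries NOCRE, and the sources used here name no driver of a Cre. It was also not stated whether the replicates came from separate mice, so every p-value measures only the spread between these libraries, which may be technical.

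Brg1 is an ATPase of the SWI/SNF (BAF) complexes, which use ATP to slide or evict nucleosomes and so keep regulatory DNA accessible. Medullary thymic epithelial cells display proteins of many peripheral tissues to developing T cells, and the Aire protein, made mainly in mTEChi, drives transcription of many of those genes. mTEClo is a mixed fraction: it holds precursors of mTEChi and also cells that have passed the Aire-expressing stage. In such sorted bulk samples, fewer cells of one kind and less open chromatin per cell cannot be told apart. The regions were not linked to genes, so the sorted cell types were not checked against marker genes and no target gene is named.

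Replicates agreed better in mTEClo than in mTEChi. Over the regions tested, the correlation of log2 signal between both replicates lay between 0.768 and 0.816 in the mTEClo groups. In mTEChi it was 0.770 in Aire-/-, 0.683 in Brg1+/+, 0.596 in Brg1-/- and 0.540 in Aire+/+. Replicate 2 of Aire+/+ mTEChi stood furthest apart, with a median correlation of 0.543 with the other mTEChi libraries against 0.582 to 0.685 for each of the rest. The main counts of calls that rest on it are therefore given with and without it. The files hold normalized signal and no counts, so the depth of each library is unknown. Exactly 0 was listed for 10165 values, in 3 libraries, among them 14 members in Aire+/+ mTEChi replicate 2.

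In the libraries that chose them, the members had a median signal of 45.3 and 43.5 in Brg1+/+ mTEClo and of 13.6 and 14.5 in Brg1-/- mTEClo. These values are a description, since they follow from the choice. The ratio of the lower Brg1+/+ library to the higher Brg1-/- library was 2.39 in the median member and ranged from 2.00 to 13.3. Most members lay near the threshold: 883 (59.1%) had a ratio under 2.5, 341 a ratio between 2.5 and 3, and 269 (18.0%) a ratio of 3 or more. A ratio of at least 5 was found in 28 members. The members were moderately accessible regions and not the most open ones. Their mean Brg1+/+ mTEClo signal had a median of 44.2, and just 37 members reached 100, or 0.353% of the 10483 regions at that level.

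The edge of the choice was continuous. The member nearest the threshold, chr3:58530994-58531493, had 29.7 and 35.3 in Brg1+/+ mTEClo and 14.9 and 6.52 in Brg1-/- mTEClo, a ratio of 2.0004. The nearest region outside it, chr10:58577112-58577611, had 107.7 and 78.4 against 39.2 and 36.2, a ratio of 1.9997. The 5 nearest regions outside spanned ratios from 1.9989 to 1.9997.

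The Aire-line mTEClo libraries, which had no part in the choice, carried the members at medians near, and mostly somewhat below, those of Brg1+/+. The median over members was 41.8 and 45.1 in Aire+/+ mTEClo and 37.1 and 39.5 in Aire-/- mTEClo. All 4 medians lay below or within the Brg1+/+ values and far above the 13.6 and 14.5 of Brg1-/- mTEClo. Over all regions the same 4 libraries had medians of only 12.2, 13.9, 13.1 and 12.7. At single members, the mean Aire+/+ mTEClo signal was within 2-fold of the Brg1+/+ mean in 1418 (95%), against a background of 73.3% of all regions tested. All 4 Aire-line mTEClo libraries exceeded both Brg1-/- mTEClo libraries in 1336 members (89.5%), against 25.1% of all regions. They reached at least 2 times the higher Brg1-/- library in 585 members (39.2%, background 4.19%). Against Brg1+/+, in contrast, the members leaned lower. Both Brg1+/+ mTEClo libraries lay above both Aire+/+ mTEClo libraries in 434 members (29.1%, background 6.19%), and the reverse held in 258 (17.3%, background 39.9%). The median log2 difference from Brg1+/+ mTEClo was -0.077 in Aire+/+ and -0.24 in Aire-/-, where all regions had 0.45 and 0.47. All regions include many of low signal. Other regions with the same minimum had medians of group means of 58.5 in Brg1+/+, 61.8 in Aire+/+ and 60.7 in Aire-/- mTEClo. For the members these were 44.2, 43.2 and 38.9. Of the members, 69 (4.62%, background 1.67%) had an Aire+/+ mTEClo mean below 0.5 of the Brg1+/+ mean. These comparisons have the rule's libraries on one side and were not tested. The rule picks regions that are high in the Brg1+/+ and low in the Brg1-/- mTEClo libraries. Other libraries may lie below the first and above the second through the choice alone.

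**Figure D1:**
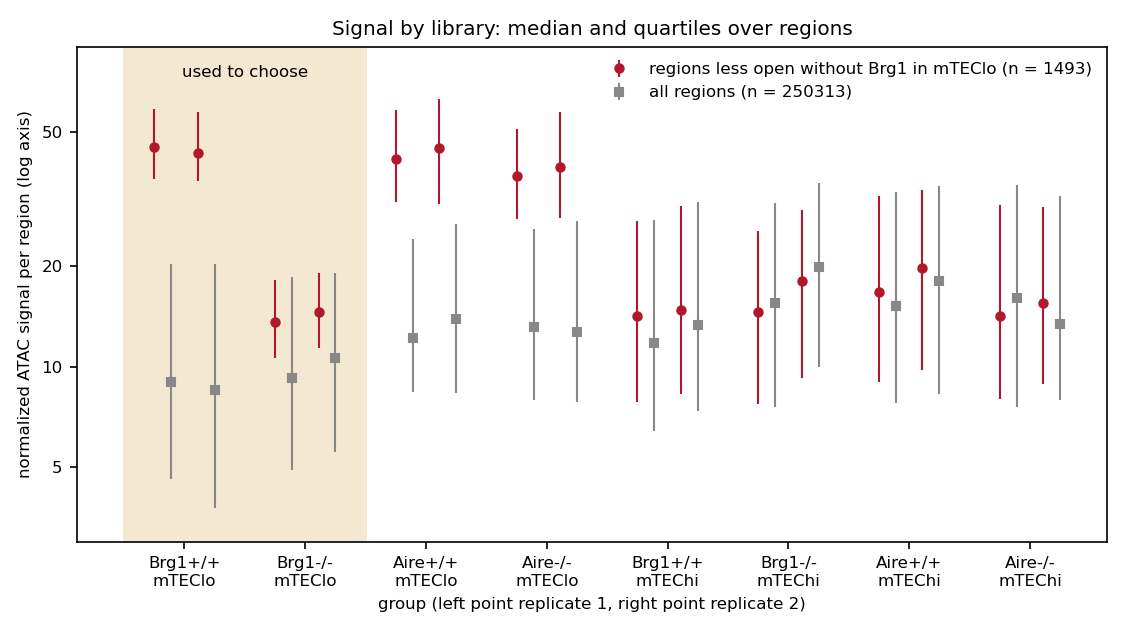
Normalized ATAC signal (log axis) in each of the 16 libraries, as the median (point) and quartiles (bar) over the 1493 members in red and over all 250313 regions in grey. In the 4 Aire-line mTEClo libraries the members sit at medians of 37.1 to 45.1, and in the 8 mTEChi libraries at 14.1 to 19.7, close to all regions. The shaded groups chose the members.

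The members were low in mTEChi of every genotype. Their medians in the 8 mTEChi libraries ran from 14.1 to 19.7, near the 13.6 and 14.5 of Brg1-/- mTEClo. For all regions the mTEChi medians were 11.8 to 19.8, so the members were as accessible there as a typical region. The other 42693 regions with the same minimum signal did not share this drop: their medians were 52.4 to 56.2 in the mTEChi libraries, beside 59.98 and 58.85 in Brg1+/+ mTEClo. The mean of Brg1-/- mTEClo fell within the span of the 8 mTEChi libraries at 1176 members (78.8%, background 72.3%), below all of them at 220 (14.7%, background 22.3%) and above all of them at 97 (6.5%, background 5.41%). The median log2 difference of Brg1-/- mTEClo minus Brg1+/+ mTEChi over the members was -0.0055, with quartiles from -0.74 to 0.69. The same median for Brg1+/+ mTEClo minus Brg1+/+ mTEChi was 1.64 (-0.44 over all regions). Both differences include libraries used in the choice and are descriptive.

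The member with the highest Brg1+/+ mTEClo signal was far more open in mTEClo than in mTEChi, also without Brg1. At chr14:29452002-29452501 the signal was 189.9 and 190.5 in Brg1+/+ mTEClo and 58.1 and 79.0 in Brg1-/- mTEClo. In the Aire line it was 254.4 and 360.9 in Aire+/+ mTEClo, and 259.9 and 342.5 in Aire-/- mTEClo. The 8 mTEChi libraries held 49.5 and 14.7 (Brg1+/+), 1.67 and 7.48 (Brg1-/-), 57.0 and 7.83 (Aire+/+), and 29.1 and 39.3 (Aire-/-). Every mTEClo library, Brg1-/- included, was above every mTEChi library, so this is one of the 97 members whose Brg1-/- mTEClo mean stayed above all mTEChi libraries. At the eighth highest member, chr9:105998892-105999391, Brg1+/+ mTEClo had 118.7 and 139.8, and Brg1-/- mTEClo had 14.4 and 24.4. There the Aire-line mTEClo values were 113.6 and 79.8 in Aire+/+, and 113.3 and 98.98 in Aire-/-. Its mTEChi values overlapped less clearly, from 1.65 in Brg1-/- replicate 2 to 73.2 in Aire+/+ replicate 1.

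The members with the largest and the next largest ratio differed in their Aire-line mTEClo signal. The largest ratio belonged to chr2:105088436-105088935, with 47.6 and 36.9 in Brg1+/+ mTEClo against 2.78 and 0.89 in Brg1-/- mTEClo. In the Aire line this region stood at 15.9 and 25.4 in Aire+/+ mTEClo and at 26.4 and 10.6 in Aire-/- mTEClo, below both Brg1+/+ libraries. At chr11:112411478-112411977, with the ratio of 11.8, the Brg1+/+ values of 60.3 and 55.4 were matched by 50.5 and 56.5 in Aire+/+ mTEClo and by 44.1 and 74.0 in Aire-/- mTEClo. Brg1-/- mTEClo had 4.71 and 2.77 there. Of the 8 mTEChi libraries, only Aire-/- replicate 1, at 4.30, lay below the higher of these.

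How mTEChi differs from mTEClo could be tested in the Aire line, where neither group compared had been used for the choice. The test was limma on log2(signal + 1) with all 16 libraries, and p-values were Benjamini-Hochberg adjusted over the 225281 regions that passed a low-signal filter, which all 1493 members did. A call means an adjusted p under 0.05, and fold changes are mTEChi minus mTEClo on that log2 scale. In Aire+/+, 411 members (27.5%) were called lower in mTEChi, against a background of 3.65% of all regions tested. Just 22 members (1.47%) were called higher in mTEChi, against 5.14%. The median log2 fold change of the members was -1.30 (quartiles -2.03 and -0.45), whereas that of all regions was 0.16 (quartiles -0.56 and 0.93). Of the other 42693 regions with the same minimum, 13.7% were called lower and 4.1% higher, with a median of -0.20. The spread in this fit is pooled over all groups, the 4 libraries that chose the members included. In the 8 Aire-line libraries alone, 448 members (30.0%) were called lower and 25 higher, against 3.64% and 5.49% of all regions. Both mTEClo libraries exceeded both mTEChi libraries in 990 members (66.3%, background 21.5%). The backgrounds of this and the other orders of libraries are over all regions tested, many of them of low signal.

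Without Aire the members kept the same tilt. In Aire-/-, 454 members (30.4%, background 4.22%) were called lower in mTEChi and 29 (1.94%, background 7.15%) higher, with a median of -1.32 beside 0.096 over all regions. Of the other regions with the same minimum, 14.4% were called lower and 5.06% higher, with a median of -0.14. The 8 Aire-line libraries alone gave 479 lower and 32 higher, against 4.37% and 7.84% of all regions. Both genotypes called 245 members lower in mTEChi (16.4%, background 1.84%) and 11 higher (0.737%, background 2.92%). Without Aire+/+ mTEChi replicate 2 these were 199 (13.3%, 1.51% of all regions) and 7 (0.469%, 2.09%). All 4 Aire-line mTEClo libraries lay above all 4 Aire-line mTEChi libraries in 750 members (50.2%, background 10%). When the Brg1 line was added, all 6 mTEClo libraries other than Brg1-/- lay above all 8 mTEChi libraries in 571 members (38.2%, background 3.79%), a count that includes libraries used in the choice.

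The number of calls fell whichever library of the comparison was left out, and the shares of all regions given here fell too. Without Aire+/+ mTEChi replicate 2, the library that stood apart, 304 members (20.4%) were called lower and 11 higher in Aire+/+, with shares of 2.63% and 3.06% over all regions. Leaving out mTEClo replicate 1 or 2 gave 170 and 118 lower calls in Aire+/+ (11.4% and 7.90%), where 1.47% and 1% of all regions were called lower. In Aire-/- the 454 became 177 and 249 without mTEChi replicates 1 and 2 (11.9% and 16.7%), beside 1.88% and 2.52% of all regions. It became 181 and 115 without mTEClo replicates 1 and 2 (12.1% and 7.70%), beside 1.7% and 1.17%. The members' median relative to all regions moved far less, from -1.45 to between -1.43 and -1.33 in Aire+/+ and from -1.41 to between -1.49 and -1.31 in Aire-/-.

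**Figure D2:**
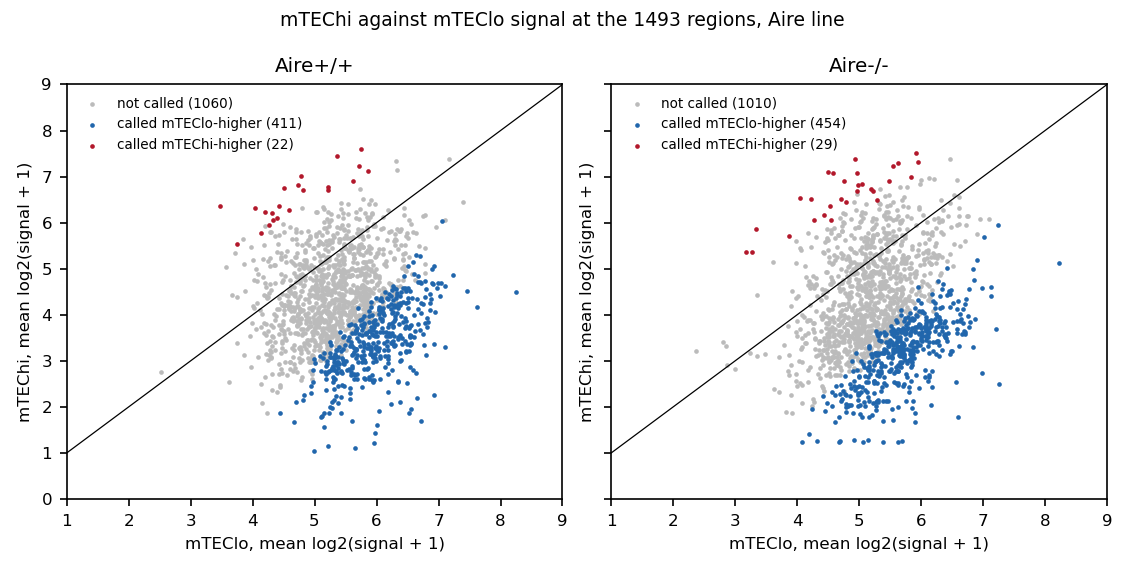
Mean log2(signal + 1) of each of the 1493 members in mTEChi (vertical axis) against mTEClo (horizontal axis), for Aire+/+ at the left and Aire-/- at the right, with the diagonal of equal signal. In Aire+/+, 411 members are called mTEClo-higher (blue) and 22 mTEChi-higher (red). In Aire-/- the counts are 454 and 29.

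The tilt toward mTEClo was also present beside other regions of a similar class of Brg1+/+ mTEClo signal. Among the 564 members with a Brg1+/+ mTEClo mean of 30 to 40, 15.6% were called mTEClo-higher in Aire+/+, against 7.85% of 10216 other regions of that level. Between 40 and 60 the shares were 25.7% of 610 members and 11.9% of 11752 other regions. Between 60 and 100 they were 47.9% of 282 members and 17.5% of 10279 other regions, and at 100 and over 31 of 37 members and 17.8% of 10446 other regions. The median fold changes in the first 3 classes were -1.07, -1.26 and -1.75 for members and -0.17, -0.25 and -0.28 for the others. At 100 and over they were -2.36 for members and -0.14 for the others. Without Aire+/+ mTEChi replicate 2 these became -1.82 and -0.13, so the members' difference in this class rested partly on that library. In Aire-/- the shares in the first 3 classes were 19.7%, 30.3% and 46.8% of members beside 7.98%, 12.5% and 18% of other regions. Without Aire+/+ mTEChi replicate 2, the Aire+/+ shares were 13.7%, 18.4% and 33.7% of members beside 6.05%, 9.19% and 12.7% of other regions. The classes use the Brg1+/+ libraries that entered the choice, and these differences were described and not tested.

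Members called mTEClo-higher in Aire+/+ came from both the strong and the weak end of the Brg1 ratio. The share was 27.4% in the 883 with a ratio of 2 to 2.5, 27.3% in the 341 with 2.5 to 3, and 28.3% in the 269 above that. Without Aire+/+ mTEChi replicate 2 they were 19.5%, 21.4% and 21.9%. The 411 members called had a median signal of 62.8 in Aire+/+ mTEClo and of 10.8 in Aire+/+ mTEChi. In Brg1-/- mTEClo their median was 17.0, near the 12.5 and 14.4 of Brg1+/+ and Brg1-/- mTEChi. The 1060 members not called in either direction had medians of 38.6 in Aire+/+ mTEClo and 22.6 in Aire+/+ mTEChi.

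The widest sort difference in Aire+/+ was at chr18:69974100-69974599. Aire+/+ mTEClo held 96.9 and 113.3 there, and Aire+/+ mTEChi 3.13 and 1.53. The log2 fold change was -5.03 ± 0.52 (SE), with a limma adjusted p of 5.2e-07, and -4.68 (2.4e-05) without Aire+/+ mTEChi replicate 2. The libraries that chose it had 109.0 and 111.6 in Brg1+/+ mTEClo and 48.5 and 38.1 in Brg1-/- mTEClo, so the Brg1-/- mTEClo signal remained above all mTEChi libraries. At chr4:84030954-84031453 the values were 102.7 and 81.1 in Aire+/+ mTEClo against 3.64 and 1.84 in mTEChi, a change of -4.67 ± 0.58 (SE, adjusted p = 5.3e-06, limma), and of -4.32 (0.00026) without that library. Here Brg1-/- mTEClo, at 23.5 and 24.97, fell between the mTEChi libraries of the Brg1 line, which ran from 7.11 to 42.8.

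In Aire-/- the widest difference among those shown was at chr15:37649762-37650261. It had 91.9 and 99.5 in Aire-/- mTEClo but 0.80 and 5.58 in Aire-/- mTEChi, a change of -4.81 (adjusted p = 5.7e-06, limma). At chr5:112319736-112320235 the Aire-/- mTEClo values of 146.8 and 158.5 stood against 0.77 and 17.3 in mTEChi, a change of -4.75 ± 0.64 (SE, adjusted p = 9.9e-06, limma). The Brg1+/+ mTEClo values at that region were 154.1 and 128.8, and the Brg1-/- ones 48.6 and 62.9.

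A few members ran the other way and were more open in mTEChi. At chr11:119849656-119850155, Aire+/+ mTEChi had 128.1 and 129.8 and mTEClo 25.1 and 28.0, a change of 2.24 ± 0.40 (SE, adjusted p = 0.00041, limma). The Brg1-line mTEChi values there were 100.6 and 62.1 in Brg1+/+ and 52.1 and 82.1 in Brg1-/-, which overlap. At chr16:31493598-31494097 the Aire+/+ values were 111.9 and 112.9 in mTEChi against 29.5 and 22.1 in mTEClo. That change of 2.10 had an adjusted p of 0.0025 (limma), and 0.054 without Aire+/+ mTEClo replicate 2. Over the 22 members called mTEChi-higher in Aire+/+, the medians were 95.9 in Aire+/+ mTEChi, 70.7 in Brg1+/+ mTEChi and 59.4 in Brg1-/- mTEChi. Their median in Brg1+/+ mTEClo was 43.9. Single members could differ between the lines: at chr1:80819653-80820152, called higher in Aire+/+ mTEChi (120.8 and 54.2 against 10.5 and 9.86 in mTEClo), Brg1+/+ had 24.1 and 18.6 in mTEChi but 32.5 and 39.1 in mTEClo.

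Loss of Brg1 was next compared in mTEChi, where the labels give the same 2 genotypes and neither group had been used for the choice, although the pooled spread again includes the libraries that had. Only 2 members (0.134%) were called lower in Brg1-/- mTEChi, against a background of 0.0111% of all regions tested, and 0 were called higher, against 0.0146%. At an unadjusted p under 0.05, 126 members (8.44%, background 2.9%) were lower and 130 (8.71%, background 7.8%) were higher. The signs were almost evenly divided, with 725 members (48.6%, background 38.6%) lower and 768 (51.4%, background 61.4%) higher. Both Brg1+/+ mTEChi libraries were above both Brg1-/- ones in 254 members (17%, background 11.7%), and the reverse held in 283 (19%, background 24.8%). The median log2 fold change was 0.032 in members and 0.22 in all regions, a difference of -0.19. The median of the other regions with the same minimum was 0.059. The difference from all regions was -0.080 when only regions above the 50th percentile of signal were kept. In classes of Brg1+/+ mTEClo signal, members and other regions had medians of 0.17 and 0.18 at 30 to 40. The medians were -0.011 and 0.11 at 40 to 60, and -0.067 and 0.039 at 60 to 100. At 100 and over, with 37 members, they were -0.44 and 0.0028. These class differences were not tested. The members' own median became -0.25 after quantile normalization, -0.14 after cyclic loess and -0.42 after re-centring, so its sign rests on the scaling, and the difference from all regions was negative under each of the 3.

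The median in mTEChi contrasts with the -1.57 that the choice set in mTEClo, and the typical standard error of a member in mTEChi was 0.63. A change larger than this mTEClo median could go uncalled at a single region in mTEChi. At chr9:105998892-105999391 a change of -2.25 ± 0.63 (SE) had an adjusted p of 0.20 (limma). At chr14:29452002-29452501 a change of -2.57 ± 0.58 (SE) had an adjusted p of 0.10 (limma). The few calls therefore do not show that a loss of the mTEClo size was absent in mTEChi. Signal there was also low: the members' medians were 14.1 and 14.7 in Brg1+/+ mTEChi, beside 45.3 and 43.5 in Brg1+/+ mTEClo. Changes of such low signals are understated on the log2(signal + 1) scale. At the 22 members called mTEChi-higher in Aire+/+, the median change without Brg1 in mTEChi was -0.44, from a Brg1+/+ mTEChi median of 70.7. It was 0.13 at the 411 called mTEClo-higher and 0.0069 at the 1060 not called. These classes were not tested. When the 2-fold rule itself was applied to mTEChi, 1118 regions were less open without Brg1. These included 25 members, which is 1.67% of the members and 2.24% of the 1118, where the 1118 are 0.447% of all regions. The reverse rule in mTEChi gave 3561 regions (1.42% of all), among them 13 members (0.871%). In mTEClo the reverse rule gave 460 regions (0.184% of all). Whether the Brg1 effect differed between the sorts was not tested over the members, because the mTEClo side was fixed by the choice.

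**Figure D3:**
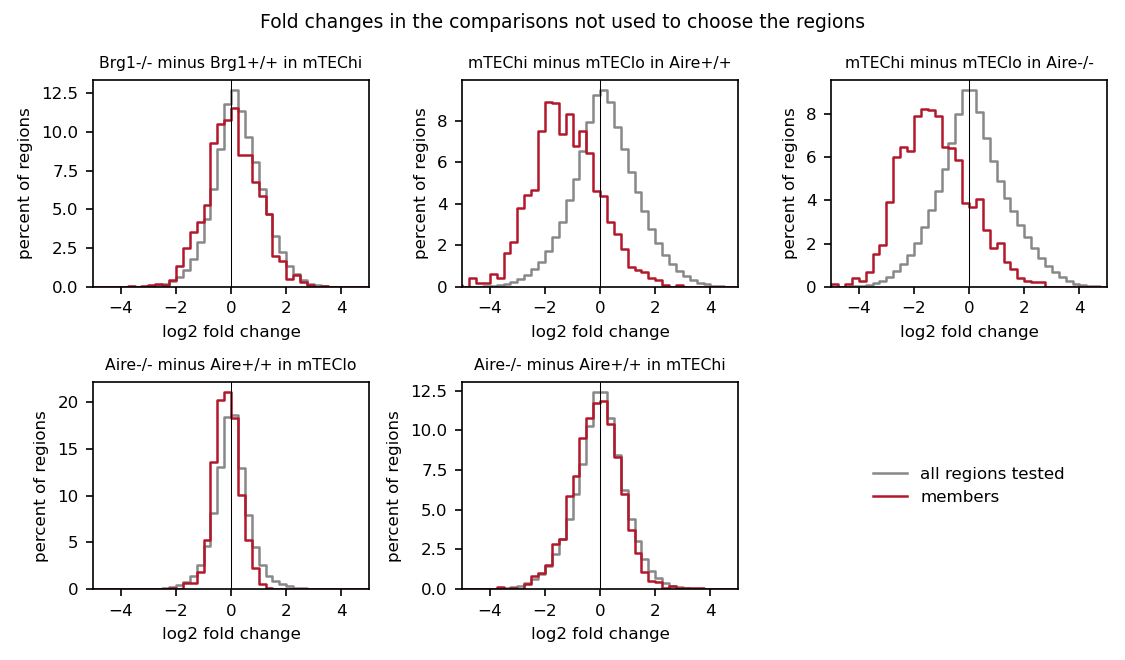
Distribution of log2 fold changes (horizontal axis; percent of regions on the vertical axis) for the 1493 members in red and all 225281 regions tested in grey, in 5 comparisons that share no library with the choice. Members are shifted to a median of -1.30 and -1.32 in the sort comparisons, beside 0.16 and 0.096 for all regions. For loss of Brg1 in mTEChi and for loss of Aire the curves overlap widely, with 48.6% of members against 38.6% of all regions below 0 for Brg1, and 63.4% against 50% for Aire in mTEClo.

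The first of the called members was chr9:97175821-97176320. Brg1+/+ mTEChi had 88.7 and 80.9 and Brg1-/- mTEChi 23.0 and 23.4, a change of -1.82 ± 0.32 (SE, adjusted p = 0.029, limma). In mTEClo the values were 128.2 and 117.8 in Brg1+/+ and 47.1 and 51.4 in Brg1-/-. In the Aire line this region held 150.8 and 183.9 in Aire+/+ mTEClo and 112.5 and 66.9 in Aire+/+ mTEChi. Brg1-/- libraries were therefore lowest in each sort. The other called member, chr4:126994287-126994786, had 27.5 and 55.3 in Brg1+/+ mTEChi and 2.01 and 1.99 in Brg1-/- mTEChi, a change of -3.74 ± 0.63 (SE, adjusted p = 0.021, limma). Its Brg1+/+ mTEClo signal was 27.3 and 38.7, with 12.9 and 12.2 in Brg1-/- mTEClo. Neither call held in a fit of the 8 Brg1-line libraries alone, with adjusted p of 0.18 and 0.10, and each was lost without 1 Brg1+/+ mTEChi library: 0.081 without replicate 1 for the chromosome 9 region and 0.064 without replicate 2 for the chromosome 4 region.

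No member passed the test in the upward direction, and the nearest were weakly covered in Brg1+/+ mTEChi. At chr2:137751132-137751631 the values were 1.53 and 2.46 in Brg1+/+ mTEChi and 19.99 and 43.1 in Brg1-/- mTEChi, with an adjusted p of 0.072 (limma). At chr3:94164586-94165085 they were 4.29 and 7.36 against 51.6 and 36.5, with an adjusted p of 0.086 (limma). Neither pair of groups overlapped.

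**Figure D4:**
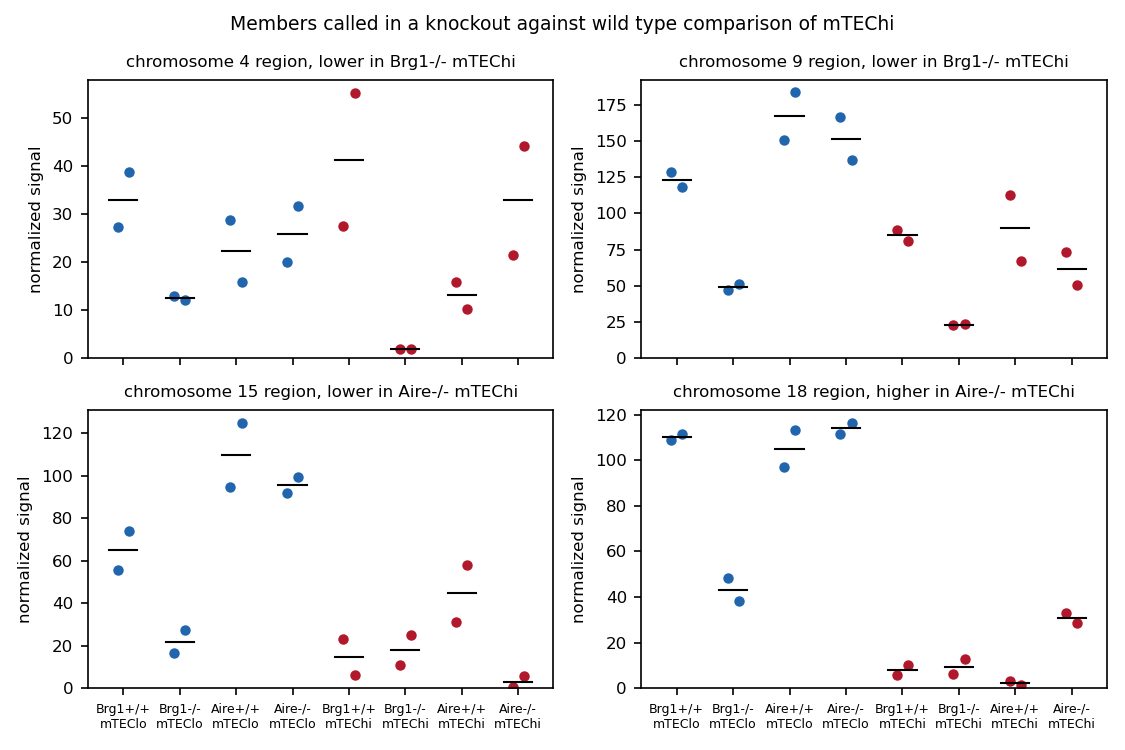
Normalized signal in each library (points) and group mean (line) for the 4 members called in a knockout against wild type comparison of mTEChi, with mTEClo in blue and mTEChi in red. The chromosome 4 and 9 regions fall to 1.99 to 2.01 and to 23.0 to 23.4 in Brg1-/- mTEChi. The chromosome 15 region is at 0.80 and 5.58 and the chromosome 18 region at 33.0 and 28.8 in Aire-/- mTEChi.

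Loss of Aire left the members without calls in mTEClo. By limma, 0 members and 0 regions of the whole were called in either direction, a background of 0%. At an unadjusted p under 0.05, 24 members (1.61%, background 1.21%) were lower and 2 (0.134%, background 1.29%) higher in Aire-/- mTEClo. More members than not had a lower signal without Aire, 947 (63.4%) against 50% of all regions. The median log2 fold change was -0.16 (quartiles -0.46 and 0.15), beside 0.00045 over all regions. Both Aire+/+ mTEClo libraries were above both Aire-/- ones in 418 members (28%, background 17.1%), and the reverse was seen in 154 (10.3%, background 16.8%). The same 2-fold rule between Aire+/+ and Aire-/- mTEClo gave 164 regions (0.0655% of all), of which 3 were members.

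The smallest unadjusted p among the lower members belonged to chr6:93063265-93063764, with 16.5 and 32.1 in Aire+/+ and 1.90 and 8.20 in Aire-/- mTEClo, a change of -2.22 ± 0.74 (SE, unadjusted p = 0.0054, limma). At chr8:130694960-130695459 the values were 59.8 and 38.5 in Aire+/+ mTEClo against 23.8 and 19.9 in Aire-/- mTEClo. The groups did not overlap at either region, and neither passed adjustment. This chromosome 8 region was also called higher in Aire-/- mTEChi than in Aire-/- mTEClo, by 2.59 ± 0.38 (SE, adjusted p = 3.8e-05, limma), with 120.0 and 153.2 in mTEChi.

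In mTEChi, 1 member was called lower without Aire (0.067%, background 0.00977%) and 1 higher (0.067%, background 0.0111%). The median log2 fold change of -0.10 was beside -0.0015 for all regions. The lower one, chr15:37649762-37650261, had 31.4 and 58.1 in Aire+/+ mTEChi and 0.80 and 5.58 in Aire-/- mTEChi, a change of -3.67 ± 0.62 (SE, adjusted p = 0.037, limma). The higher one, chr18:69974100-69974599, had 3.13 and 1.53 in Aire+/+ mTEChi and 33.0 and 28.8 in Aire-/- mTEChi, a change of 3.30 ± 0.52 (SE, adjusted p = 0.034, limma). At both, the Brg1-line mTEChi values were below 26, from 6.28 to 25.3 and from 5.80 to 13.0. Both calls failed in the 8 Aire-line libraries alone, each with an adjusted p of 0.20. The chromosome 15 call also ended without Aire+/+ mTEChi replicate 2 (0.12), without Aire-/- mTEChi replicate 1 (0.23) and after re-centring (0.055). The chromosome 18 call ended without either Aire-/- mTEChi library (0.12 and 0.055). Without Aire+/+ mTEChi replicate 1, in contrast, 33 members were called, 11 lower and 22 higher, with 0.176% and 0.819% of all regions called in the same fit. Without replicate 2, the library that stood apart, 0 were lower and 2 higher, with 0.00266% and 0.04% of all regions.

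The chromosome 18 region was the sole member called in 3 of the 6 comparisons tested. It was called mTEClo-higher in both Aire genotypes, at -5.03 in Aire+/+ and -1.85 in Aire-/-, and the difference between its Aire effects in the sorts did not pass. Across all members that difference of Aire effects gave 0 calls by limma in either direction (background 0.000444% lower and 0% higher). At an unadjusted p under 0.05 it gave 35 lower and 46 higher (2.34% and 3.08%, background 2.54% and 2.61%), and the smallest adjusted p was 0.96.

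The members were spread over the 19 autosomes and X, mostly as single regions. Chromosome 9 held 133 of them, 8.91% of the members against 6.00% of the regions with the same minimum, and chromosome 13 held 88 (5.89% against 4.62%). Chromosome X held 8 (0.536% against 1.37%) and chromosome 10 held 59 (3.95% against 5.10%). The median distance from a member to the nearest other region was 1673 bp, compared with 895 bp for other regions of the same minimum and 1531 bp for all regions. Members were thus less crowded than regions of equal minimum signal: 54.7% had another region within 2000 bp, against 71.3%. Over all regions the share was 56.9%. Signal was not matched beyond the minimum. These are descriptions of position and were not tested.

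**Figure D5:**
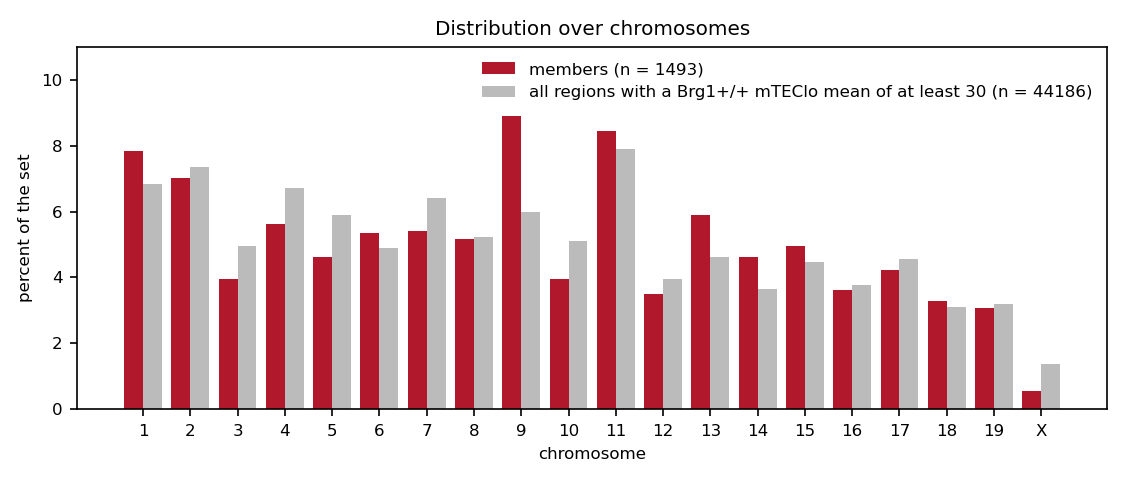
Share of the 1493 members (red) and of all 44186 regions with a Brg1+/+ mTEClo mean of at least 30 (grey) on each chromosome, in percent. Chromosome 9 holds 8.91% of the members against 6.00%, and X holds 0.536% against 1.37%.

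Of the 816 members with another region within 2000 bp, 11 (1.35%) had a member as that nearest region, where members make up 0.596% of all regions and 3.38% of those with the same minimum. The other neighbours numbered 802 distinct regions, of which 59.9% had a lower mean in Brg1-/- than in Brg1+/+ mTEClo, against 46.5% of all regions. Their median log2 difference was -0.15, beside -0.12 for other regions with the same minimum. These values come from the libraries that chose the members, so they describe the neighbours and are no test against the members. In Aire+/+ the neighbours' median mTEChi minus mTEClo difference was -0.18, compared with -0.20 for other regions with the same minimum and -1.30 for the members. When members up to 50 kb apart were joined, 102 runs of at least 2 held 225 members (15.1%), and 90 of these were pairs. A member lay within that distance of 10.5% of the other regions with the same minimum.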

How the data were processed

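The 16 ATAC-seq libraries were analysed from 1 deposited table of signal per region. The values are the authors' normalized signal in 250313 regions of 500 bp; their scaling is not stated in the sources used here. Reads were aligned with Bowtie2 and regions called with MACS2 on mm9, per the submitters' processing notes, with no versions given. Since the signal is not a count, no count model was used and depth is unknown.

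Signal was tested as log2(signal + 1) with limma 3.58.1 in R 4.3.3: 8 group means, 8 residual degrees of freedom, trend and robust moderation. Regions with a mean under the 10th percentile (7.48) were left out, 25032 in all, and p-values were adjusted by Benjamini-Hochberg over 225281 regions. The fold changes are on the log2(signal + 1) scale, which understates the change of low regions. The comparisons were 6: Brg1 loss in mTEChi, mTEChi against mTEClo in each Aire genotype, Aire loss in each sort, and the difference of both Aire effects. Brg1 loss in mTEClo chose the members and was not tested.

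The members and lists were chosen with earlier results of these data known. Regions named were those with the highest signal, the largest ratio, the largest called changes or the smallest unadjusted p per comparison, the threshold's neighbours and the longest runs; the text gives a subset. Alternatives were the pseudocount, the filter, quantile normalization, cyclic loess, re-centring, the libraries of 1 line alone, other thresholds of the rule, a replicate block and each library left out. Replicate numbers were not used for pairing.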

Additional observations from a re-analysis of the deposited data

Results flagged for a closer look

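At 4 members with all values of Brg1-/- mTEClo below those of Brg1+/+ mTEClo, both Brg1-/- mTEChi libraries lay above both Brg1+/+ ones. They come from the 8 members with the highest signal and the 8 with the largest ratio. The same order in mTEChi was found in 19% of all members and in 24.8% of all regions tested, and none of the 4 was called in mTEChi. In the same lists, the reverse order in mTEChi was seen at chr14:29452002-29452501, chr8:127450278-127450777, chr5:135998152-135998651, chr9:105998892-105999391 and chr11:92468853-92469352. Over all members that reverse order held in 17%, against 11.7% of all regions tested. The mTEClo direction was fixed by the choice of members, and the difference between the sorts was not tested. At chr11:56953864-56954363 the mTEChi change was 1.80 on the log2 scale, from 1.43 and 12.8 to 18.4 and 20.04, while mTEClo had 81.7 and 47.6 in Brg1+/+ and 2.76 and 5.55 in Brg1-/-. At chr11:112411478-112411977 it was 1.35, from 6.43 and 7.52 to 16.5 and 22.6. At chr13:40850159-40850658 it was 1.34, from 25.3 and 6.28 to 28.3 and 40.8, with 155.7 and 138.5 against 59.98 and 65.3 in mTEClo. At chr2:105088436-105088935, the member with the largest ratio, it was 0.29 ± 0.74 (SE), from 6.25 and 4.69 to 6.32 and 7.48.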

How the results depend on the processing

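No call at a named region changed direction under any alternative run. The other called members were not followed one by one. With a library left out, the small median of the difference of the Aire effects, 0.031 relative to all regions, ran from -0.013 to 0.15. The members' median for Aire loss in mTEChi, -0.10 relative to all regions, was 0.0055 with a minimum of 60. Of the single regions' values, 5 lost and 2 gained a call under other settings, and 11 and 4 with a library left out. Of the main results under settings other than a left-out library, 168 values kept their call or moved within the limits set and 30 moved beyond them; the cause was not tested. Relative to all regions, the members' median mTEChi minus mTEClo change was -1.45 in Aire+/+ and became -1.23 with a pseudocount of 5 and -1.99 with a minimum mean of 60. In Aire-/- it was -1.41, and became -1.16 with a pseudocount of 5, -1.53 with a filter at the 50th percentile, -1.52 after quantile normalization, -1.54 after cyclic loess, -1.63 with a ratio of 3, -1.29 with a minimum of 20 and -1.78 with a minimum of 60. With that minimum of 60, 52.0% of the 319 members were called mTEClo-higher and 0.627% mTEChi-higher in Aire+/+, and 49.5% and 1.25% in Aire-/-. The mTEChi-higher share was 0.670% after re-centring in Aire+/+ and 0.744% with a ratio of 3 in Aire-/-.

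For Brg1 loss in mTEChi, the 0.134% of members called became 0.203% with the filter at the 50th percentile, 0.536% after quantile normalization (8 lower), 0.938% after re-centring (14 lower), 0.313% with a minimum of 60, and 0% with the 8 Brg1-line libraries or a ratio of 3. For Aire loss in mTEChi, the 0.134% became 0.203% with that filter, 0.0670% after re-centring, 0.0491% with a ratio of 1.5, 0.627% with a minimum of 60, and 0% with the 8 Aire-line libraries, a ratio of 3 or a choice made on quantile-normalized signal. That last choice gave 984 members, of which 640 were among the 1493. The share of members in runs was 15.1%, and fell to 8.91% with gaps up to 20 kb and to 2.23% with a ratio of 3.

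Leaving out 1 library gave 7.90% to 20.4% of members mTEClo-higher and 0.402% to 1.14% mTEChi-higher in Aire+/+, and 7.70% to 16.7% and 0.670% to 1.21% in Aire-/-. Each such fit leaves 1 library in a group, which is assumed to vary like the other groups. The range was 0.134% to 0.536% for Brg1 loss in mTEChi, with 8 members lower without Brg1-/- replicate 1 and 7 lower without replicate 2. It was 0% to 2.21% for Aire loss in mTEChi and 0% to 0.201% for the difference of the Aire effects, both highest without Aire+/+ mTEChi replicate 1.

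The labels do not say whether the replicate numbers pair the libraries. Over 28 pairs of groups, same-numbered libraries' deviations correlated between -0.018 and 0.034, so they shared no deviation over the regions tested. Whether they shared a mouse or a batch cannot be told from this. With the replicate block, 27.9% of members were mTEClo-higher in Aire+/+ (416) and 30.1% in Aire-/- (449), and 0.134% were called for each loss in mTEChi. Depth is unknown, and 2 libraries a group limit every single-region call.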

Other observations

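The longest runs of members differed from each other in the sorts and in mTEChi without Brg1. The longest covered chr11:96636396-96725379, where 6 of 45 regions were members. Its 6 members did not share a sort difference: in Aire+/+ the mTEChi minus mTEClo change ran from -1.82 (adjusted p = 0.040, limma) to 0.72, and the other 5 were not called.

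The next run, chr11:101703584-101743384, held 5 members among just 9 regions over 39801 bp. All 5 had a lower fitted signal in Brg1-/- mTEChi than in Brg1+/+ mTEChi, by -0.31 to -1.91 on the log2 scale, and none was called. The one with the highest Brg1+/+ mTEChi signal, chr11:101740022-101740521, had 95.2 and 108.9 there and 33.6 and 30.2 in Brg1-/- mTEChi, with an adjusted p of 0.060 (limma). In mTEClo it had 67.8 and 70.1 against 13.9 and 29.6. In the Aire line it was high in both sorts, with 134.3 and 152.0 in Aire+/+ mTEClo and 141.3 and 194.3 in Aire+/+ mTEChi. It is thus a member whose loss of signal without Brg1 had the same direction in both sorts and that was no more open in mTEClo than in mTEChi.

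On chromosome 9, the run chr9:66902996-66964228 held 5 members of 15 regions. All 5 were lower in Aire+/+ mTEChi than in mTEClo by the fitted change, from -0.95 to -1.20, and none was called. Their changes without Brg1 in mTEChi ran from -0.19 to 1.55. The runs were picked by their length in members, so these values describe 3 places and say nothing about members in general.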
